A study of Mus musculus with 20 samples.

Results

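The IL-6 cytokine axis is described here by 8 genes, chosen by name from the 24411 genes measured in each of 20 RNA-seq libraries of the mouse outer eyecup. The members are the ligands *Il6* and *Lif*, the receptor subunits *Il6ra*, *Il6st*, *Lifr* and *Osmr*, the transcription factor *Stat3* and the feedback inhibitor *Socs3*, and all 8 passed the filter of at least 5 reads in total. The list was drawn up with results of these data already known, namely the level of *Il6* under the deficient diet and of *Il6ra* under the sufficient diet, so the comparisons between genotypes are given for the members as a description without p-values, and *Il6* and *Il6ra* are given without p-values throughout.

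The outer eyecup is the retinal pigment epithelium (RPE) with the choroid, the vascular bed behind it. WT mice and mice with a whole-body loss of *Stra6*, the membrane receptor that brings retinol from the blood into the RPE, were kept after weaning for 12 weeks on a vitamin A sufficient (VAS, 4 IU per g) or a vitamin A deficient (VAD, 0 IU per g) diet, with 5 libraries in each group. All libraries are labelled C57BL/6, with the J substrain named in the methods for the *Stra6*-/- mice alone. The dams and pups had standard chow before weaning, and each library held both eyecups of 1 mouse by the account of the study. WT mice were bought and are not described as littermates of the *Stra6*-/- mice. The 20 libraries held from 13331903 to 21878614 reads.

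Some libraries went against their labels or stood apart. *Stra6* itself, the targeted gene, had normalized values from 2414 to 2742 in VAS WT and from 564 to 694 in VAS *Stra6*-/-. In the libraries with the VAD *Stra6*-/- label it lay between 1973 and 2393, above VAD WT, so this group is named here only by its label. In VAD WT it was 693, 1340.1, 697, 1529 and 669 in replicates 1 to 5, so that replicates 1, 3 and 5 lay at the level of VAS *Stra6*-/- and go against their label in the same way. VAD WT too is a label here. As a share of the summed value of 8 RPE markers, a measure chosen after the data were seen, *Stra6* followed the labels: 2.78 to 3.30% in VAS WT, 2.14 to 2.49% in VAD WT, 0.581 to 0.710% in VAS *Stra6*-/- and 0.506 to 0.613% in the libraries with the VAD *Stra6*-/- label. Set against each marker alone, *Stra6* was higher in all WT than in all *Stra6*-/- libraries for every marker but *Best1*. For *Best1* the lowest WT ratio was 25.8 and the highest *Stra6*-/- ratio 130. The marker sum itself also differed between the groups, as given below. Genotype and diet differences below are differences between groups so labelled. Transcripts of the sex chromosomes also followed the groups. *Xist*, made from the inactive X chromosome, lay between 7.69 and 38.4 in VAS WT and between 15320.2 and 18052 in VAS *Stra6*-/-, and the Y-linked *Ddx3y* between 981 and 1193 in VAS WT and between 0 and 1.02 in VAS *Stra6*-/-. The sex of the mice and the genotype therefore cannot be told apart on the VAS diet. Both transcripts were present in each of the libraries with the VAD *Stra6*-/- label, *Xist* from 3569.8 to 4279.6 and *Ddx3y* from 741 to 969.7. Whether each library held 1 mouse, or material shared with another library, was not tested. The n below therefore counts libraries. The SD, SE and p-values describe spread between libraries, which may not be the spread between independent mice. Neither transcript overlapped between the diets in *Stra6*-/-, so sex and diet cannot be told apart there either. This holds for the tests of diet in *Stra6*-/- and of the difference between the diet effects. VAD WT was split, with replicates 2 and 4 high in *Xist* (10912 and 11767) and replicates 1, 3 and 5 low (174 to 234). *Ddx3y* went the other way, at 75.2 and 80.5 in replicates 2 and 4 and 1041 to 1133 in replicates 1, 3 and 5. The results for the members that rest on VAD WT are given with and without replicates 2 and 4. Of 20 differences in other named genes that rest on VAD WT, all 20 kept their sign and call without these 2 libraries. The log2 difference moved by more than 1.5 times for 4 of them. For diet in WT these were *Gfap* from -0.88 to -0.31 and *Junb* from 0.42 to 0.18. For genotype under VAD they were *Gfap* from 0.91 to 0.34 and *Socs2* from 0.91 to 1.42.

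Cytokines of the IL-6 family bind a receptor subunit of their own and signal through the shared subunit gp130, the product of *Il6st*. JAK kinases bound to gp130 then phosphorylate STAT3, which enters the nucleus and raises the transcription of many genes, among them *Socs3*, whose product shuts gp130 signalling off. In the eye, LIF is known as a signal released in the injured retina that acts on photoreceptors and glia, and the RPE is a known source of IL-6 in inflammation.

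The sequences in front of the RefSeq start of 2 members are shown because these genes had the largest ranges between groups among the ligands and the downstream genes. Promoter windows from RefSeq (GRCm38.p6) were found for all 8 members, 9 windows in all, and were searched on both strands over the 250 bases before the annotated start for letters chosen after the sequences had been read. In *Il6* (chr5:30012864-30013113, plus strand, the 250 bases before the start) the capitals mark, from left to right, an AP-1 site (TGANTCA, 249 to 243 bases before the start), the core of a cyclic AMP response element (CRE; TGACGT, here read on the opposite strand), a C/EBP site (TTGCNNAA, opposite strand) and an NF-kB site (44 to 35 bases before the start). In *Socs3* (chr11:117969502-117969530, minus strand) the capitals mark a STAT site (TTCNNNGAA, 154 to 146 bases before the RefSeq start), shown with 10 bases on either side.
Il6: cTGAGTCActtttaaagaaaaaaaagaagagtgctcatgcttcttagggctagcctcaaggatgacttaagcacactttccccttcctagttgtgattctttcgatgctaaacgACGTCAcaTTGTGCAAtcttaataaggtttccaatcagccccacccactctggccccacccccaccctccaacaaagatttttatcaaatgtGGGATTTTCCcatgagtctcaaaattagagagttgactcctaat
Socs3: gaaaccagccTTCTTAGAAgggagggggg
*Socs3* was the 1 member of 8 whose window held the STAT letters, which 7.02% of the 32851 windows searched held. The AP-1 letters stood in 6.75% of all windows, also in that of *Lif* (228 to 222 bases before the start), the CRE core in 6.47%, the C/EBP letters in 9.56% and the NF-kB letters in 0.356%. A match of letters is a description and no evidence of binding.

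**Figure D1:**
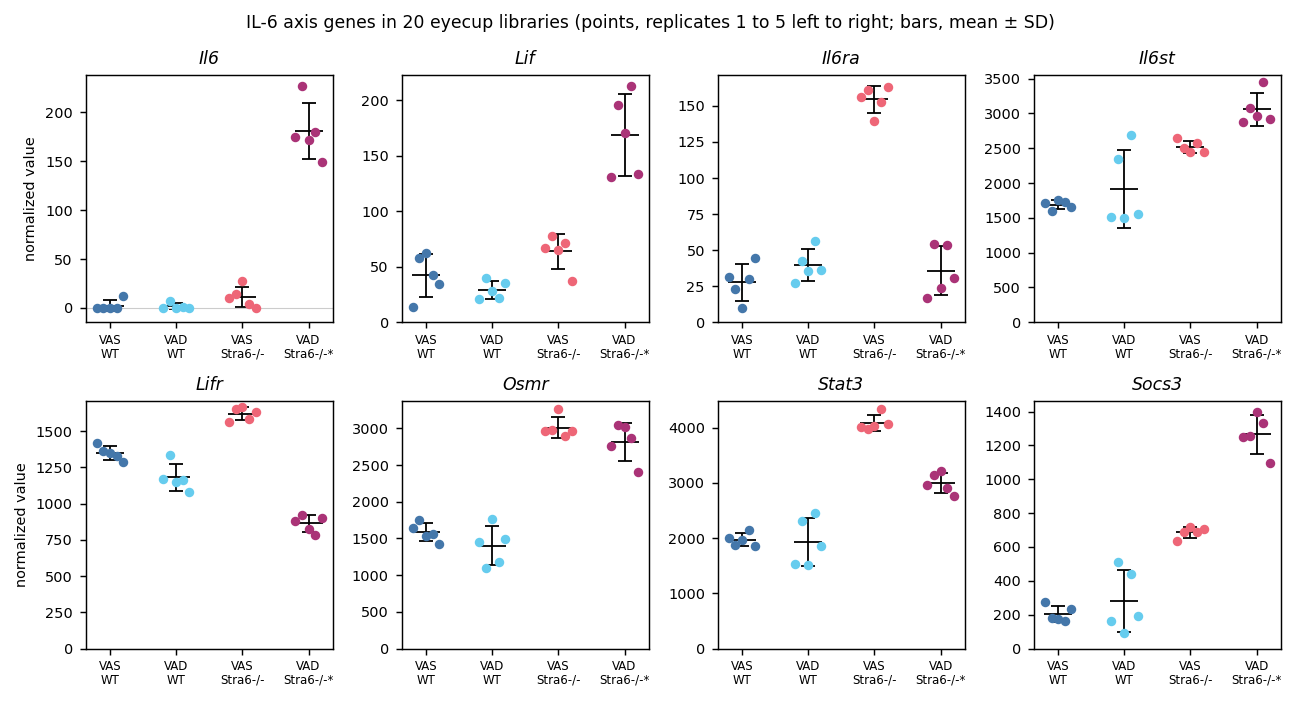
Normalized value (linear axis) of each of the 8 members in all 20 libraries, by group; points are replicates 1 to 5 from left to right, bars the mean ± SD of 5 libraries. The asterisk marks the libraries with the VAD Stra6-/- label, in which the level of *Stra6* goes against the label. *Il6* reached 149.7 to 227 in these libraries alone, *Il6ra* stood apart in VAS Stra6-/- at 139 to 163, and VAD WT replicates 2 and 4 lay above replicates 1, 3 and 5 for *Il6st*, *Stat3* and *Socs3*.

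*Il6*, the cytokine that gives the family its name, was nearly absent from WT eyecups and had its highest values in the libraries with the VAD *Stra6*-/- label. The gene lies on chromosome 5 from 30013114 to 30019981 (GRCm38, plus strand). Its normalized values, which are read counts divided by 1 size factor per library, were 0, 0, 0, 0 and 12.5 in VAS WT and 0, 7.21, 0, 0.856 and 0 in VAD WT. A single library of 5 in VAS WT held any read of *Il6*, 14 in number, and the 5 VAD WT libraries held 8 reads together. The values in VAS *Stra6*-/- were 10.2, 14.3, 27.5, 4.22 and 0, a mean of 11.2 ± 10.6 (SD, n = 5), and overlapped those of VAS WT. Values of 175, 227, 172, 179.9 and 149.7 were found in the libraries with the VAD *Stra6*-/- label, a mean of 181 ± 28.5 (SD, n = 5) and from 168 to 252 reads per library. These 5 values lay above all 15 others. On the log2(value + 1) scale of the limma fit, which understates changes of low genes, the difference between the libraries with the VAD *Stra6*-/- label and VAD WT was 6.71 (standard error, SE, 0.83), and that between VAS *Stra6*-/- and VAS WT 2.17 (SE 0.83). The difference between the diets within *Stra6*-/- was 4.57 and within WT 0.04, each with a SE of 0.83. With VAD WT replicates 2 and 4 left out, no read of *Il6* remained in that group and the difference from the libraries with the VAD *Stra6*-/- label was 7.49.

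*Lif*, a cytokine that signals through LIFR and gp130, followed a similar order at low levels. It lies on chromosome 11 from 4257557 to 4272514 (plus strand). Its normalized values were 13.7, 57.7, 62.2, 42.9 and 34.8 in VAS WT and 21.2, 40.2, 28.4, 22.3 and 35.1 in VAD WT, with overlap between the diets. They were 67, 77.9, 65.1, 71.8 and 37.5 in VAS *Stra6*-/-, where 4 of 5 values lay above every WT value, and 131, 196, 171, 213 and 134 in the libraries with the VAD *Stra6*-/- label. The last group lay above all others without overlap, at a mean of 169 ± 36.7 against 63.9 ± 15.6 in VAS *Stra6*-/- (SD, n = 5 each). *Lif* was thus higher in the libraries with the VAD *Stra6*-/- label than in VAS *Stra6*-/- by 1.40 in log2 units (SE 0.34, adjusted p = 0.00140, limma), a 2.65-fold difference. Between the diets in WT the log2 difference was -0.39 (95% interval -1.09 to 0.32, adjusted p = 0.561, limma). The diet difference itself differed between genotypes by 1.79 (SE 0.48, adjusted p = 0.00432, limma). This quantity is also the genotype difference under VAD minus that under VAS. For every member its p-value is therefore not independent of how the list was chosen. As a description, *Lif* was 1.63-fold higher in VAS *Stra6*-/- than in VAS WT and 5.64-fold higher in the libraries with the VAD *Stra6*-/- label than in VAD WT. Leaving out VAD WT replicates 2 and 4 gave log2 differences of 2.54 under VAD, -0.43 for diet in WT (adjusted p = 0.415) and 1.83 between the diet differences (adjusted p = 0.00431, both limma).

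*Il6ra*, the subunit that binds IL-6, showed another pattern, high in VAS *Stra6*-/- and low elsewhere. It lies on chromosome 3 from 89864059 to 89913196 (minus strand), and 242 of the 8642 bases of its annotated exons are shared with the antisense gene *Gm42809*, so with counting whose strand use is not stated its reads may include some of that gene. Its normalized values were 31.4, 23.1, 9.73, 30.2 and 44.6 in VAS WT and 27.1, 42.2, 35.5, 56.5 and 36.4 in VAD WT. In VAS *Stra6*-/- they lay in a narrow band of 156, 161, 139, 153 and 163, a mean of 155 ± 9.44 (SD, n = 5), which lay above all 15 other values. They were 17.1, 54.1, 23.5, 53.5 and 30.4 in the libraries with the VAD *Stra6*-/- label, overlapping both WT groups. The log2 difference between genotypes was 2.58 under VAS and -0.24 under VAD, and that between diets was -2.21 in *Stra6*-/- and 0.60 in WT (SE 0.36 each), with -0.01 under VAD and 0.37 in WT when VAD WT replicates 2 and 4 were left out. The 2 genes that code for the cytokine and for its binding subunit were thus highest in different groups, *Il6* where *Il6ra* had values of 17.1 to 54.1 and *Il6ra* where *Il6* had values of 0 to 27.5.

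*Il6st*, which codes for gp130, was abundant in every library and higher in both *Stra6*-/- groups. It lies on chromosome 13 from 112464070 to 112510086 (plus strand). Its values were 1715, 1600.1, 1758, 1724 and 1655 in VAS WT and 1509, 2352, 1501, 2690.0 and 1552 in VAD WT, where replicates 2 and 4 stood at 2352 and 2690.0 and the other 3 from 1501 to 1552. They were 2649, 2505, 2442, 2571 and 2453 in VAS *Stra6*-/- and 2870.4, 3079, 2967, 3455 and 2915 in the libraries with the VAD *Stra6*-/- label, and these groups did not overlap. Nevertheless the diet difference in *Stra6*-/-, 0.27 on the log2 scale, did not pass the threshold with all libraries in the fit (adjusted p = 0.0722, limma). The spread in that fit is pooled over all 4 groups. *Il6st* varied most in VAD WT (SD 561), outside this comparison, against 86.4 in VAS *Stra6*-/- and 235 in the libraries with the VAD *Stra6*-/- label (n = 5 each). Without VAD WT replicates 2 and 4, the same difference had an adjusted p of 3.09e-05 (limma). In WT the diet difference was 0.14 (adjusted p = 0.573) with all libraries and -0.15 (adjusted p = 0.0317) without those 2 (limma), so its sign rested on them. The genotype difference was 0.58 under VAS and 0.71 under VAD, or 1.00 under VAD without the 2 libraries. The difference between the diet effects, 0.14 (adjusted p = 0.571, limma), became 0.43 (adjusted p = 3.08e-05, limma) without them.

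*Lifr*, the subunit that pairs with gp130 for LIF, had the smallest SE of the 8 and lay on opposite sides of WT in the *Stra6*-/- groups. It lies on chromosome 15 from 7090614 to 7197489 (plus strand). Its values were 1421, 1362, 1351, 1326 and 1287 in VAS WT, 1172, 1337, 1152, 1162 and 1081 in VAD WT, 1561, 1653, 1665, 1583 and 1635 in VAS *Stra6*-/- and 883, 925, 823, 784 and 902 in the libraries with the VAD *Stra6*-/- label. VAS *Stra6*-/- lay above both WT groups and the libraries with the VAD *Stra6*-/- label below them, without overlap in either case. *Lifr* was lower in the libraries with the VAD *Stra6*-/- label than in VAS *Stra6*-/- by a log2 difference of -0.91 (SE 0.06, adjusted p = 7.47e-11, limma), a 1.88-fold fall. The diet difference in WT was -0.19 (95% interval -0.33 to -0.06, adjusted p = 0.0606, limma), and it passed the threshold without VAD WT replicates 2 and 4, at -0.25 (adjusted p = 0.00144, limma). The 2 diet differences were themselves unequal, by -0.71 (SE 0.09, adjusted p = 1.11e-06, limma). The genotype difference was 0.26 under VAS and -0.45 under VAD (SE 0.06 each), as a description. Without the 2 VAD WT libraries it was -0.40 under VAD, and the difference between the diet effects -0.66 (adjusted p = 1.62e-07, limma).

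*Osmr*, the subunit for oncostatin M, was higher in both *Stra6*-/- groups and showed no diet difference past the threshold. It lies beside *Lifr* on chromosome 15, from 6813577 to 6874969 (minus strand). Its values were 1643, 1756, 1539, 1563 and 1426 in VAS WT and 1457, 1097, 1766, 1184 and 1486 in VAD WT. They were 2959.9, 2976, 3266, 2891 and 2961 in VAS *Stra6*-/- and 2753, 3039.8, 3024, 2864 and 2411 in the libraries with the VAD *Stra6*-/- label. All 10 values of the *Stra6*-/- groups lay above all 10 WT values. The diet difference on the log2 scale was -0.10 in *Stra6*-/- (95% interval -0.31 to 0.11, adjusted p = 0.440) and -0.20 in WT (95% interval -0.41 to 0.01, adjusted p = 0.267, both limma). The genotype difference was 0.93 under VAS and 1.03 under VAD, or 0.84 under VAD without VAD WT replicates 2 and 4, in which *Osmr* was lower (1097 and 1184) than in the other 3 (1457 to 1766). The difference between the diet effects was 0.10 (adjusted p = 0.613, limma) and became -0.08 without those 2 libraries, while the diet difference in WT became -0.02 (adjusted p = 0.906, limma).

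*Stat3*, the transcription factor that gp130 signalling activates, had its highest values in VAS *Stra6*-/-. It lies on chromosome 11 from 100885098 to 100939540 (minus strand), and 72 of its 9527 annotated exon bases (0.756%) are shared with *Stat5a* on the opposite strand. Its values were 2012, 1883, 1959, 2146 and 1853 in VAS WT and 1537, 2302, 1509.7, 2464 and 1857 in VAD WT, where replicates 2 and 4 were again the highest. They were 4007, 3985, 4038, 4346 and 4068 in VAS *Stra6*-/- and 2959, 3136, 3218, 2905 and 2765 in the libraries with the VAD *Stra6*-/- label. The 4 groups fell into 3 levels without overlap, VAS *Stra6*-/- above the libraries with the VAD *Stra6*-/- label and both above WT. *Stat3* was lower in the libraries with the VAD *Stra6*-/- label than in VAS *Stra6*-/- by a log2 difference of -0.45 (SE 0.11, adjusted p = 0.00114, limma), a 1.37-fold fall. In WT the diet difference was -0.05 (adjusted p = 0.824, limma) with all libraries and -0.27 (adjusted p = 0.00241, limma) without VAD WT replicates 2 and 4. The difference between the diet effects, -0.40 (adjusted p = 0.0374, limma), did not pass the threshold without those 2 libraries, at -0.18 (adjusted p = 0.0963, limma), nor in 11 of the 20 fits that left out 1 library. The transcript level says nothing of STAT3 phosphorylation, which was not measured in these files. The genotype difference was 1.05 under VAS and 0.66 under VAD, or 0.88 under VAD without the 2 libraries.

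*Socs3*, the STAT3 target that inhibits gp130, stood at 3 levels, lowest in WT, higher in VAS *Stra6*-/- and highest in the libraries with the VAD *Stra6*-/- label. It lies on chromosome 11 from 117966079 to 117970047 (minus strand), and the STAT site shown above lies within 250 bases of its RefSeq start. This span is from GENCODE, whose start lies further upstream, so the site falls inside it. Its values were 276, 183, 176, 163 and 232 in VAS WT and 165, 513, 89.4, 441 and 194 in VAD WT, where replicates 2 and 4 (513 and 441) stood apart from the other 3 (89.4 to 194). They were 636, 687, 719, 686 and 705 in VAS *Stra6*-/- and 1248, 1258, 1398, 1331 and 1094 in the libraries with the VAD *Stra6*-/- label, and neither group overlapped with any other. *Socs3* was higher in the libraries with the VAD *Stra6*-/- label than in VAS *Stra6*-/- by 0.88 in log2 units (SE 0.31, adjusted p = 0.0216, limma), a 1.84-fold rise. That SE is pooled over all 4 groups, and *Socs3* varied most in VAD WT (SD 185, n = 5), outside this comparison. In WT the diet difference was 0.19 (adjusted p = 0.781, limma), and without VAD WT replicates 2 and 4 it was -0.51 (adjusted p = 0.0390, limma). The difference between the diet effects was 0.69 (adjusted p = 0.222, limma) with all libraries and 1.38 (adjusted p = 6.57e-05, limma) without those 2. The genotype difference was 1.76 under VAS and 2.45 under VAD, or 3.14 under VAD without the 2 libraries.

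Per kilobase of annotated exon, the scale on which genes can be set beside each other, *Stat3* and 3 of the 4 receptor subunits were abundant and *Il6ra* and the ligands scarce. In VAS WT the mean normalized value per kilobase was 207 for *Stat3*, 152 for *Il6st*, 131 for *Osmr*, 125 for *Lifr*, 71.2 for *Socs3*, 9.72 for *Lif*, 3.22 for *Il6ra* and 1.03 for *Il6*. In the libraries with the VAD *Stra6*-/- label the highest was *Socs3* at 438 ± 39.3 (SD, n = 5), next to *Stat3* at 315 ± 19.1, and *Il6* had reached 74.5 ± 11.7. In VAS *Stra6*-/- *Stat3* led with 429 ± 15.5, and *Il6ra*, at its highest there, had 17.9 ± 1.09.

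Across the members, 6 of 8 were called higher (adjusted p under 0.05) in VAS *Stra6*-/- than in VAS WT, all but *Il6* and *Lif*, against 26.6% of the 18807 genes tested called in either direction and 15.9% called higher, and 10.8% lower. Under VAD, 7 of 8 were called between the libraries with the VAD *Stra6*-/- label and VAD WT, 6 higher and *Lifr* lower, against 55.9% of all genes (26.2% higher and 29.6% lower). Since the list was chosen from these comparisons, nothing is read from those counts. Of the 6 members given a test, 4 were called between the diets in *Stra6*-/-, *Lif* and *Socs3* higher and *Lifr* and *Stat3* lower, against 53.2% of all genes (24.4% higher and 28.8% lower). In WT none of the 6 was called, with 1 (*Lifr*) at an unadjusted p under 0.05, 0 called by edgeR and 1 by DESeq2 on 19 libraries, against 8.78% of all genes (3.29% higher and 5.50% lower). Without VAD WT replicates 2 and 4, 4 members were called lower in VAD WT than in VAS WT, *Il6st*, *Lifr*, *Stat3* and *Socs3*, against 37.9% of all genes. In the test of the difference between the diet effects 3 of the 6 were called, *Lif* higher and *Lifr* and *Stat3* lower, against 44.2% of all genes (19.5% higher and 24.8% lower). That test is not independent of the genotype comparisons from which the list was chosen. Without the 2 libraries the members called were 7 of 8 for genotype under each diet, from which again nothing is read, against 40.0% of all genes under VAS and 63.1% under VAD. They were 5 of the 6 tested for diet in *Stra6*-/- against 60.7%, and 4 of 6 (*Lif*, *Il6st*, *Lifr* and *Socs3*) for the difference between the diet effects against 54.7%. The values of the groups did not overlap for 6 members between the genotypes under VAS (32.5% of all genes), 7 under VAD (37.4%), 7 between the diets in *Stra6*-/- (51.3%) and 0 between the diets in WT (6.34%). The median log2 difference of the members was 0.99 for genotype under VAS, 0.87 under VAD, -0.01 for diet in WT and 0.09 for diet in *Stra6*-/-, beside 0.02, -0.05, 0.00 and -0.07 for all genes. Comparisons that share a group share its libraries and are not independent of each other.

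**Figure D2:**
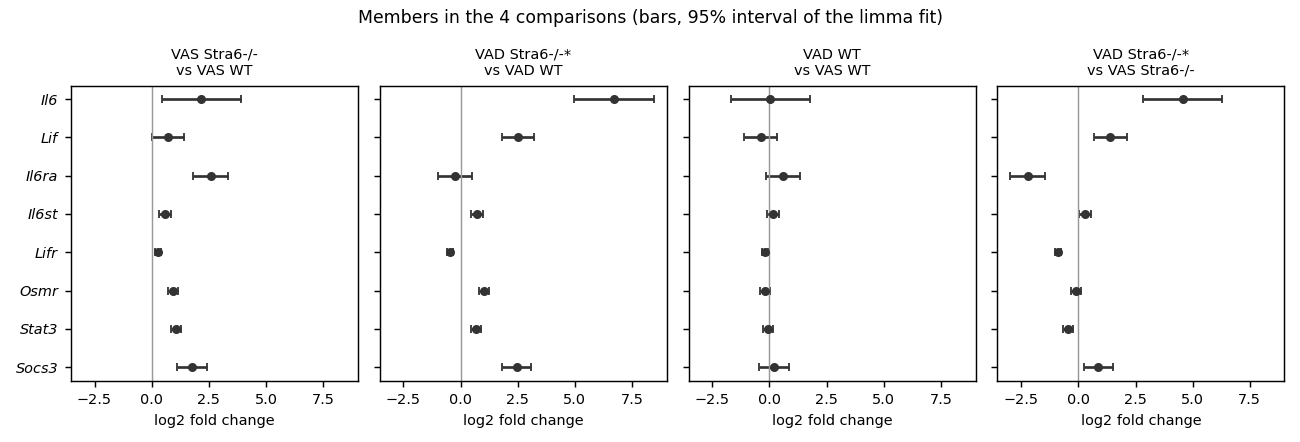
Log2 fold change of each member (x axis, on the log2(value + 1) scale) in the 4 comparisons; points are the limma estimates, bars their 95% intervals, and the asterisk marks the libraries with the VAD Stra6-/- label. *Il6* had the largest estimate of the 8 under VAD (6.71) and *Il6ra* under VAS (2.58), while no interval for diet in WT excluded 0 other than that of *Lifr* (-0.33 to -0.06).

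The other genes of the pathway, 51 in 6 lists, of which 50 were tested, are taken in the order of the pathway. The lists were drawn from general knowledge, but with earlier results of these data known, so their counts are a description. Of the other ligands, 0 of 9 tested were called in VAS *Stra6*-/- against VAS WT (1 at an unadjusted p under 0.05, 0 by edgeR or DESeq2), while in the libraries with the VAD *Stra6*-/- label 5 of 9 were higher and 2 lower than in VAD WT, beside 55.9% of all genes called. The count was 5 of 9 by edgeR, by DESeq2 and without VAD WT replicates 2 and 4. *Cntf*, a survival factor for neurons, was 244 ± 37.5 in VAS *Stra6*-/- and 722 ± 79.8 in the libraries with the VAD *Stra6*-/- label (SD, n = 5 each), with 242 ± 23.6 in VAD WT, where the log2 difference from the libraries with the VAD *Stra6*-/- label was 1.57 (adjusted p = 2.64e-10, limma). *Ctf1* (cardiotrophin-1) was likewise 159 ± 17.1 in VAS *Stra6*-/- and 520.4 ± 68.3 in the libraries with the VAD *Stra6*-/- label, a rise of 1.70 on the log2 scale (adjusted p = 3.59e-09, limma). *Ebi3*, a subunit of IL-27, rose from 17.5 ± 6.78 to 58.2 ± 11.1 between the same groups (1.78, adjusted p = 0.00130, limma). *Osm*, the ligand of OSMR, was scarce, at 7.58 ± 4.89 in VAS WT, 9.52 ± 11.7 in VAD WT, 17.1 ± 5.02 in VAS *Stra6*-/- and 30.5 ± 10.6 in the libraries with the VAD *Stra6*-/- label, higher than in VAD WT by 2.60 (adjusted p = 0.00952, limma), a call that edgeR (adjusted p = 0.121) and DESeq2 (adjusted p = 0.0749) did not make on 19 libraries.

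Among the 4 other receptor genes, *Il11ra1*, the subunit for IL-11, moved oppositely to *Il6ra*. It was 2944 ± 156 in VAS WT and 1727 ± 97.2 in VAS *Stra6*-/-, a log2 difference of -0.77 (adjusted p = 2.80e-05, limma). It reached 6842 ± 999 in the libraries with the VAD *Stra6*-/- label, above VAS *Stra6*-/- by 1.98 (adjusted p = 3.02e-12) and above VAD WT by 1.21 (adjusted p = 8.72e-09, both limma). *Il31ra*, at a mean of 4.30 ± 3.64 or below in every group, was too scarce for more than its call as lower in the libraries with the VAD *Stra6*-/- label than in VAS *Stra6*-/- (log2 difference -1.70, adjusted p = 0.0433, limma), which was lost when any of 9 single libraries was left out (VAS WT replicate 4, VAS *Stra6*-/- replicates 1, 2, 4 and 5, or replicates 2 to 5 with the VAD *Stra6*-/- label).

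Of the 10 kinases, STATs and other transducers, 4 were called in VAS *Stra6*-/- against VAS WT, all higher, beside 26.6% of all genes called. Of the kinases that gp130 binds, *Tyk2* was not called (-0.22, adjusted p = 0.338, limma). *Jak1* and *Jak2* were called, *Jak1* with 2341 ± 57.3 in VAS WT and 3493 ± 101 in VAS *Stra6*-/- (0.58, adjusted p = 4.67e-06) and *Jak2* with 772 ± 81.5 and 1309 ± 109 (0.76, adjusted p = 2.08e-06, both limma). *Ptpn11*, the phosphatase SHP2 that gp130 recruits, rose by 0.67 (adjusted p = 2.38e-05, limma). In the libraries with the VAD *Stra6*-/- label against VAS *Stra6*-/- 8 of 10 were called, 3 higher and 5 lower, beside 53.2% of all genes. The 4 JAK kinases were all lower there, *Tyk2* the most, from 574 ± 32.5 to 187 ± 29.5 (log2 difference -1.62, adjusted p = 1.10e-08, limma), and *Jak3* next, from 478 ± 54.2 to 183 ± 25.4 (-1.38, adjusted p = 1.10e-09, limma). *Stat5a* lay between 115 and 214 in VAD WT and between 265 and 327 in the libraries with the VAD *Stra6*-/- label (0.85, adjusted p = 5.76e-05, limma).

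The brakes other than *Socs3* numbered 6, of which 1 was called in VAS *Stra6*-/- against VAS WT. This was *Cish*, a SOCS family member, with 443 ± 63.4 in VAS WT and 758 ± 41.0 in VAS *Stra6*-/- (0.78, adjusted p = 6.44e-05, limma). *Socs2* was higher in the libraries with the VAD *Stra6*-/- label, 389 ± 43.7, than in VAS *Stra6*-/-, 204 ± 37.9 (0.94, adjusted p = 0.00370), and so was the phosphatase gene *Ptpn2*, 929 ± 41.0 against 670.0 ± 57.8 (0.47, adjusted p = 0.000559, both limma). *Pias3*, whose product binds STAT3, was lower in the libraries with the VAD *Stra6*-/- label than in VAD WT, 705 ± 133 against 1209 ± 97.2 (log2 difference -0.80, adjusted p = 5.28e-06, limma).

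Known STAT3 targets and acute phase genes form the longest list. In VAS *Stra6*-/- against VAS WT 13 of 18 were called, all of them higher, beside 26.6% of all genes called and 15.9% called higher, with a list median of 0.79 on the log2 scale beside 0.02 for all genes. *Bcl3*, an atypical IkB protein, rose from 304 ± 33.2 to 1444 ± 98.2 (2.25, adjusted p = 1.82e-10, limma). *Lrg1*, a secreted glycoprotein of the acute phase, rose from 212 ± 23.3 to 645 ± 48.9 (1.61, adjusted p = 0.000263, limma), and the transcription factor gene *Cebpd* from 1095 ± 44.5 to 3203 ± 217 (1.55, adjusted p = 0.00539, limma). Against VAD WT, the libraries with the VAD *Stra6*-/- label had 10 of 18 higher and 4 lower, beside 26.2% and 29.6% of all genes. In the libraries with the VAD *Stra6*-/- label 5 of 18 were higher and 8 lower than in VAS *Stra6*-/-, beside 24.4% and 28.8% of all genes. *Bcl3* fell back to 243 ± 45.3 (log2 difference -2.59, adjusted p = 5.32e-13) and *Nfkbiz*, another atypical IkB gene, went from 2066 ± 84.5 to 294 ± 59.0 (-2.83, adjusted p = 1.15e-10, both limma). The fibrinogen gene *Fgg*, low throughout, was 37.0 ± 9.92 in VAS *Stra6*-/- and 3.21 ± 2.24 in the libraries with the VAD *Stra6*-/- label (-3.39, adjusted p = 1.17e-06, limma). Against VAD WT, *Serpina3n*, a secreted protease inhibitor of the acute phase, rose from 2096 ± 1119 to 14938 ± 566 (2.99, adjusted p = 1.47e-10, limma) and the metalloproteinase inhibitor gene *Timp1* from 116 ± 68.4 to 508 ± 72.8 (2.33, adjusted p = 7.78e-07, limma). High *Socs3* and *Il6* thus stood in the same libraries as low *Bcl3*, *Nfkbiz* and *Fgg* and high *Serpina3n* and *Timp1*.

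Few of these genes differed between the diets in WT. Of the 50 other pathway genes 6 were called, 3 higher and 3 lower (12.0%, beside 8.78% of all genes). *Pim1*, a kinase gene and STAT target, was 729 ± 85.5 in VAS WT and 415 ± 52.9 in VAD WT (log2 difference -0.81, adjusted p = 2.24e-05, limma). *Gfap*, the intermediate filament of astrocytes and stressed Müller cells, was 2303 ± 205 and 1389.5 ± 658 (-0.88, adjusted p = 0.0185, limma), a call that was lost with only the WT groups in the fit (adjusted p = 0.230, limma) and without VAS WT replicate 4 (adjusted p = 0.0518, limma), and the value was -0.31 without VAD WT replicates 2 and 4. Without VAD WT replicates 2 and 4 the count was 20 of 50, beside 37.9% of all genes. Of the LIF response genes of the retina, *Edn2* was lower in the libraries with the VAD *Stra6*-/- label than in VAS *Stra6*-/-, 17.5 ± 7.04 against 69.1 ± 27.3 (-1.90, adjusted p = 0.000141, limma). *Fgf2*, at 10.3 or below in every VAS library, was called higher in VAS *Stra6*-/- than in VAS WT (2.16, adjusted p = 0.0439, limma). It was not called by edgeR (adjusted p = 0.0688) or with a pseudocount of 4 (1.00, adjusted p = 0.086, limma). The call was also lost when any of 11 single libraries was left out (VAS WT replicates 2 to 5, any VAS *Stra6*-/- library, or replicates 1 and 2 with the VAD *Stra6*-/- label).

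**Figure D3:**
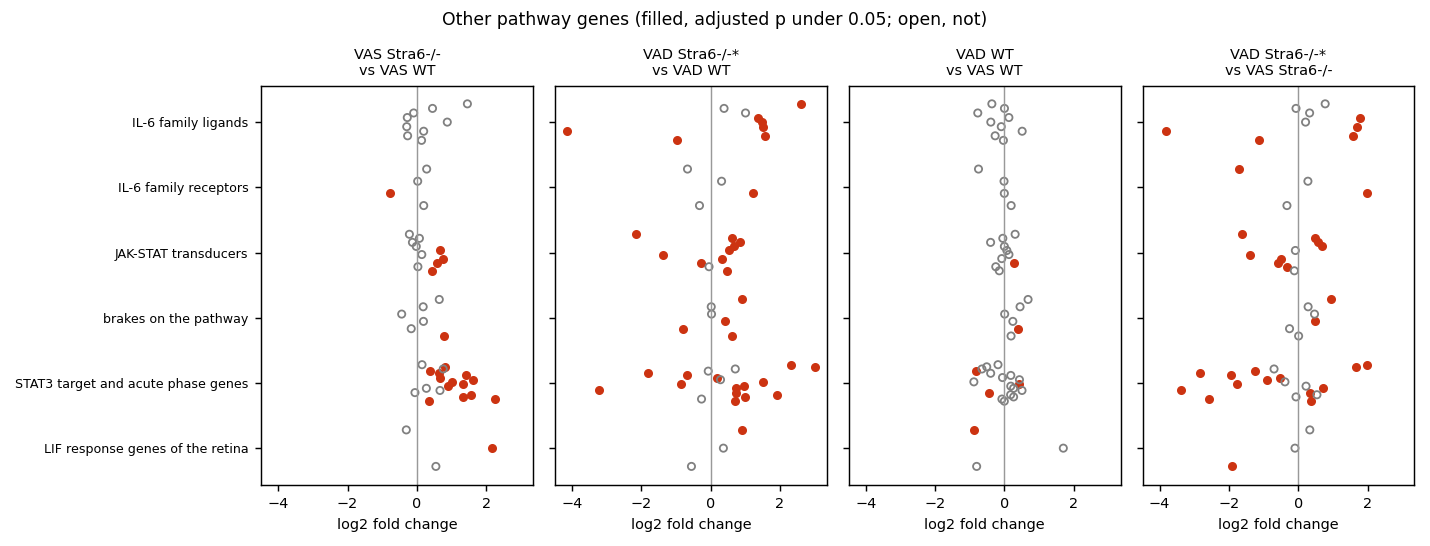
Log2 fold change (x axis) of the 50 other pathway genes tested, by list, in the 4 comparisons; each point is 1 gene, filled where the adjusted p was under 0.05 (limma) and open where not, and the asterisk marks the libraries with the VAD Stra6-/- label. In VAS Stra6-/- the 13 called STAT3 target and acute phase genes lie to the right of 0, while in the comparison of the diets in Stra6-/- 5 lie to the right and 8 to the left.

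The cell types in the libraries differed with the groups, and in bulk tissue fewer cells of a type cannot be told apart from less RNA per cell. The summed value of 8 RPE markers ran from 82780 to 90918 in VAS WT, 28959 to 62624 in VAD WT, 93815 to 97795 in VAS *Stra6*-/- and 389782 to 417032 in the libraries with the VAD *Stra6*-/- label. That of 8 markers of cornea and surface epithelium, a tissue outside the labelled RPE-choroid, was 424958 to 516553 in VAS WT, 274179 to 809002 in VAD WT, 626158 to 650238 in VAS *Stra6*-/- and 16866 to 22319 in the libraries with the VAD *Stra6*-/- label. The 8 macrophage and microglia markers summed to 6561 to 6788, 4168 to 5354, 5762 to 6370.5 and 11271 to 11943 in the same order. None of these markers was at 0 in every library of a group. The 5 markers of fibroblasts and sclera were about level in VAS WT (32417 to 34619) and VAS *Stra6*-/- (32440 to 33548), and stood at 176412 to 187899 in the libraries with the VAD *Stra6*-/- label.

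Set beside the members, the group with the highest *Il6*, *Lif* and *Socs3* was also the one with the highest RPE, macrophage, fibroblast, endothelial and Müller glia sums and the lowest surface epithelium and rod sums. Its Müller glia sum was 167385 to 179379 and its rod sum 71471 to 83277. Single markers were not all alike: against VAS *Stra6*-/-, 7 of 8 RPE markers were higher without overlap and *Best1* overlapped. Likewise 6 of 8 macrophage markers were higher and *Itgam* lower (174 against 2100.5 on average). Of the Müller glia markers 2 of 4 were higher (*Glul* and *Apoe*) and 2 overlapped, both against VAS *Stra6*-/- and against VAD WT. Of the endothelial markers 4 of 5 were higher against VAS *Stra6*-/- and 2 of 5 against VAD WT, and the others overlapped. The neutrophil sum over the 4 of 5 markers measured was 243 to 292 in the libraries with the VAD *Stra6*-/- label. It was 199 to 342 in VAS *Stra6*-/-, 113 to 204 in VAS WT and 35.5 to 138 in VAD WT. Of these 4 markers, 3 were higher without overlap against VAD WT and 1 (*Retnlg*) against VAS *Stra6*-/-. The T cell sum over 3 of 4 was 25.2 or below in the libraries with the VAD *Stra6*-/- label. It was 25.3 to 38.0 in VAS *Stra6*-/-, and both WT groups overlapped with the libraries so labelled. Between VAS WT and VAS *Stra6*-/-, where *Il6ra* and *Stat3* were higher in all 5 *Stra6*-/- libraries, the endothelial sums (4666 to 4817 and 4531 to 4766) and fibroblast sums overlapped, the RPE and surface epithelium sums were higher and the macrophage sums lower in *Stra6*-/- without overlap, and the sum of 4 skeletal muscle markers was 6423 to 7586 and 16718 to 19502. In VAD WT replicates 2 and 4, which had the higher *Il6st*, *Stat3* and *Socs3*, the RPE, endothelial, fibroblast and rod sums were higher and the surface epithelium and macrophage sums lower than in replicates 1, 3 and 5. Under VAS, 6 of 8 surface epithelium markers were higher in *Stra6*-/- and *Krt13* and *Krt4* lower. Of the RPE markers 4 of 8 were higher and *Rdh5* lower, and 2 of 8 macrophage markers (*Csf1r* and *Cx3cr1*) lower with 6 overlapping. The part of these marker differences in the results for the members was not tested.

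**Figure D4:**
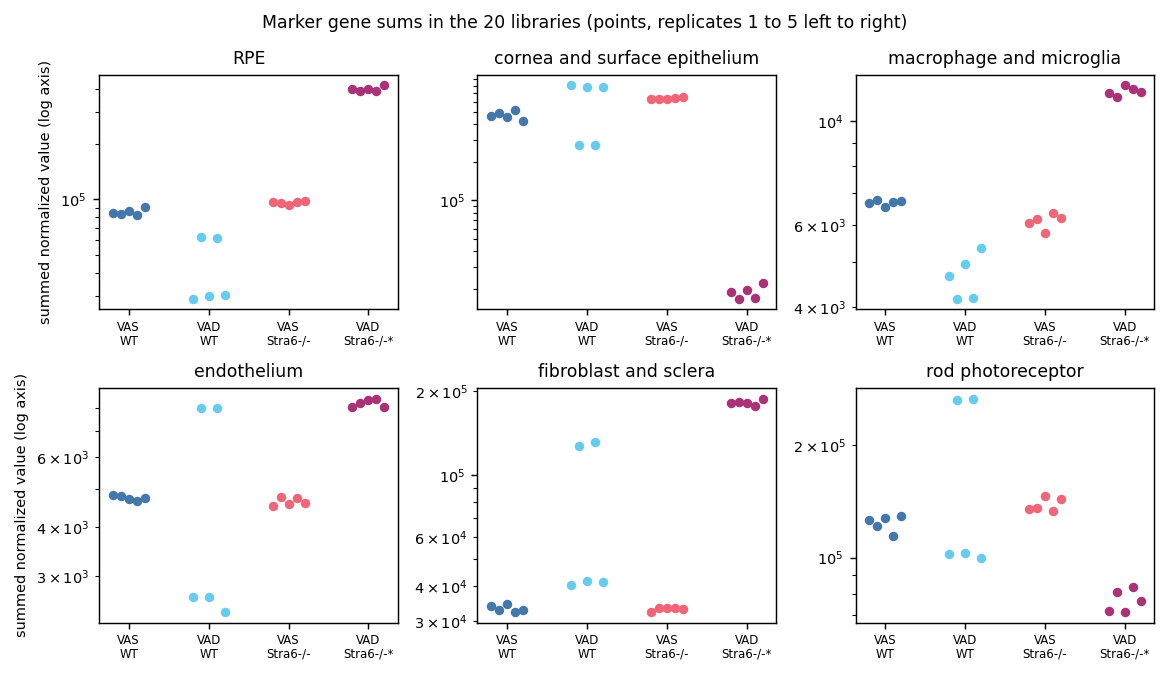
Summed normalized value of 6 marker lists (log axis) in the 20 libraries by group; points are replicates 1 to 5 from left to right, and the asterisk marks the libraries with the VAD Stra6-/- label. The surface epithelium sum lies at 16866 to 22319 in these libraries and at 274179 or above in all others, and VAD WT replicates 2 and 4 lie above replicates 1, 3 and 5 for RPE, endothelium, fibroblast and rod markers and below them for surface epithelium and macrophage markers.

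The genes whose log2 values ran most like a member over the 20 libraries are given as a description, with group, library and cell makeup shared by all points. For *Il6* they included *Acbd5*, of the peroxisome, *C1galt1c1*, *Phtf2* and *Sec63*, at Pearson's r of 0.925 to 0.933. For *Il6ra* they were *Tpp2*, *Hcfc1*, *Supt6*, *Ptpn1* and *Xrn2*, at 0.898 to 0.942. For *Socs3* they were the neutrophil chemokine gene *Cxcl1*, *Itpkb*, *Dio2*, *Cyth3* and *Ifrd1*, at 0.974 to 0.983. None of these genes was among the 51 of the pathway lists.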

How the data were processed

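RNA-seq libraries of the outer eyecup, from 20 mice by the account of the study and 5 per genotype and diet, were grouped by the submitters' labels. The authors aligned reads to GRCm38/mm10 with STAR 2.5.3a, estimated gene counts with RSEM 1.2.30 and deposited them as a signal, the count divided by 1 DESeq2 1.32.0 size factor per library, with no length scaling. Whether counting used strand is not given in the sources used here. Every value in 19 libraries was a whole multiple of that library's step within 0.001, which gives reads back; for replicate 1 of the libraries with the VAD *Stra6*-/- label this was not claimed. Depth limits genes such as *Il6*, where a floor of 3 reads covers counting error only.

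Values were tested as log2(value + 1) with limma 3.58.1 in R 4.3.3 (4 group means, all 20 libraries, intensity trend, Benjamini-Hochberg adjustment over 18807 genes with at least 5 reads in total), and a gene was called at an adjusted p under 0.05. The fit was tested on simulated data. The tests with edgeR 4.0.16 and DESeq2 1.42.0 on the 19 libraries were alternatives, as were other pseudocounts, TMM scaling, other filters, fewer libraries and a replicate block. The members and lists were chosen with earlier results of these data known. Named genes are the members, *Stra6*, the 3 called genes with the largest change per list and comparison, and the 5 genes most correlated with *Il6*, *Il6ra* and *Socs3*; *Xist*, *Ddx3y* and *Gm42809* were added after their values or positions were seen. Some genes that this rule names are not reported here. Positions and exon lengths are from GENCODE vM21. Replicate numbers did not pair the libraries: 0 of 5 pairs per comparison had correlated deviations over 0.1, the range being -0.134 to 0.0948. No library pair agreed within counting noise.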

Additional observations from a re-analysis of the deposited data

Results flagged for a closer look

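In 32 checks of a member within a group of 5 libraries, 4 libraries lay far from the rest by Dixon's criterion. For normally spread values, chance flags about 1 in 20 such checks. That rate does not hold for *Il6* in WT, where most libraries held no read. *Il6* was 12.5 in VAS WT replicate 5 and 0 in the other 4, so that any value above 0 would have been flagged. In VAD WT, *Il6* was 7.21 in replicate 2 and between 0 and 0.856 in the others. *Osmr* was 3266 in VAS *Stra6*-/- replicate 3, against 2891 to 2976. *Stat3* was 4346 in VAS *Stra6*-/- replicate 4, against 3985 to 4068.

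The diet difference between the groups labelled *Stra6*-/- differed from that between the groups labelled WT for 3 of the 6 members tested (44.2% of all genes), in the limma test of the difference itself, with the level of *Stra6* going against both VAD labels. *Lif* had a difference of 1.79 on the log2 scale, with all 5 libraries with the VAD *Stra6*-/- label above all 5 VAS *Stra6*-/- libraries. *Lifr* had -0.71 and *Stat3* -0.40, each lower in all 5 libraries with the VAD *Stra6*-/- label. The call of *Stat3* was lost without VAD WT replicates 2 and 4 (-0.18) and in 11 of the 20 fits that left out 1 library. Without those 2 libraries *Il6st* (0.43) and *Socs3* (1.38) were called as well. The tested difference is also that between the genotype differences under VAD and VAS, the comparisons from which the list was chosen.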

How the results depend on the processing

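The counts of called genes changed with the fold threshold, with VAD WT replicates 2 and 4 and with the groups in the fit; counts of members are over all 8, as a description. With a log2 fold change beyond 2 required as well, the members called were 1 for genotype under VAS, 3 under VAD, 0 for diet in WT, 2 for diet in *Stra6*-/- and 2 for the interaction; the other pathway genes were 2, 6, 0, 4 and 8, and all genes 207, 1952, 77, 1707 and 1960. Without VAD WT replicates 2 and 4, diet in WT gave 4 members, 20 pathway genes and 7124 genes, and genotype under VAS 7524 genes. With only the groups compared in the fit, genotype under VAS gave 8208 genes and diet in WT 639 genes and 2 pathway genes. DESeq2 called 1 member (*Lifr*) for diet in WT. Leaving out 1 library at a time, diet in WT gave 0 to 1 members, 3 to 9 pathway genes and 1260 to 2651 genes, the highest without VAD WT replicate 4. Without VAD WT replicate 2, *Lifr* was called for diet in WT (-0.24) and *Socs3* for the interaction (0.98). Without replicates 2 and 4 the sign turned for diet in WT for *Il6* (-0.75), *Il6st* (-0.15) and *Socs3* (-0.51), and for the interaction of *Osmr* (-0.083). By DESeq2 it turned for *Il6ra* for genotype under VAD (0.023). With 1 library left out, diet in WT ran from -0.53 to 0.79 for *Il6*, from -0.10 to 0.53 for *Socs3* and from -0.15 to 0.028 for *Stat3*. With replicate number as a block, which the labels do not tie to a shared animal or day, 4820 genes were called for genotype under VAS, 10423 under VAD, 1446 for diet in WT and 9937 in *Stra6*-/-, and the block changed no call of a member and 2 of named pathway genes, *Fgf2* for genotype under VAS (adjusted p = 0.0503, limma) and *Pias3* for diet in WT (adjusted p = 0.0667, limma). For the named pathway genes, whose alternatives were chosen after seeing the data, no sign turned; besides the calls given in the report, *Pias3*, *Junb* and *Jak1* for diet in WT lost theirs with only the compared groups in the fit and with single libraries left out, *Pias3* with any of 15, *Junb* with VAS WT replicate 1, 3 or 4 and *Jak1* with VAD WT replicate 1 or 5. The fit with only the compared groups could not be made for the interaction. Beyond these causes, built into the alternatives, the cause was not tested. At these depths *Il6* in WT, with 0 to 14 reads per library, sets no ratio of precision.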
